A study of Mus musculus with 4 samples.

Results

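Chemokines and their receptors were measured in the marrow of mice carrying an MN1 leukemia and in mature myeloid cells from healthy marrow. The members were all genes whose symbol, on a probe set with a single symbol in the platform annotation, began as a CC, CXC or CX3C chemokine (Ccl, Cxcl, Cx3cl1) or as one of their receptors (Ccr, Cxcr, Cx3cr1, Xcr1, Ackr, Ccrl2, Cmklr1). This gave 55 genes on 88 probe sets, of 18193 genes on the array, with the brightest probe set, by its mean over the 4 arrays, standing for each gene. They comprised 32 chemokines and 23 receptors.

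The MN1 leukemic group held 2 arrays of total bone marrow RNA. MN1, a transcriptional coregulator, had been carried by a retrovirus with a GFP marker into C57BL/6J marrow taken 4 days after 150 mg/kg of 5-fluorouracil and stimulated for 48 hours with interleukin-6, interleukin-3 and stem cell factor. GFP-positive cells were transplanted with fresh syngeneic marrow into recipients irradiated with 750 cGy, so leukemic marrow can also hold cells of the helper marrow and the host. The Gr1/Mac1 group held 2 arrays of Gr1-positive, CD11b-positive marrow cells of healthy C57BL/6J mice. No age is given for either group. The design text calls the arrays of a group biological replicates, and it does not say whether animals were pooled. No normal immature cells were among the arrays, so leukemia and immaturity cannot be told apart, and a gate on Gr1 and CD11b itself favours genes of granulocytes and monocytes in the mature group.

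Chemokines are small secreted proteins that steer white blood cells by binding receptors coupled to inhibitory G proteins. In marrow, CXCL12 from stromal cells holds stem cells and young neutrophils in place through CXCR4. CXCR2 and its ligands draw mature neutrophils out into the blood, and CCR2 does so for monocytes. Atypical receptors bind chemokines without G protein signalling and mostly remove them.

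Levels are MAS5 signals, which are intensities on a linear scale. Fold changes are on the log2(signal + 16) scale, leukemic minus mature, which understates the change of dim genes. The mean signal of 31 members lay above the filter on low signals, at 47.65, and these were tested with limma in a fit over 12378 genes. The adjusted p is Benjamini-Hochberg over all of these genes, with a threshold of 0.05. Just above the filter lay Cmklr1 and Cxcl9 (mean signals 48.5 and 49.1), and just below it Ccr10 and Ccr6 (44.0 and 43.3). A dim gene could enter the test through 1 group alone. Of the tested members 22 had a mean over the filter in both groups, 1 (Ccl17) in leukemic marrow alone and 8 in mature cells alone. Ccl17 was called higher, and of the 8 only Cxcl10 was called lower.

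The labels were checked against other genes. Mn1 read 17.7 and 92.6 in leukemic marrow and 3.92 and 12.1 in mature cells, from a probe set too dim to be tested. Itgam, which encodes CD11b, read 584 and 306 in leukemic marrow and 4288 and 4407 in mature cells. All 9 tested progenitor markers were higher in leukemic marrow, where their summed signal was 44315 and 44732, against 3530 and 4095 in mature cells. Basophil and mast cell markers were higher as well, 5 of 6 tested, with a summed signal of 53294 and 67565 in leukemic marrow against 10720 and 13561 in mature cells. Granulocyte markers were bright in both groups. Their summed signal was 495310 and 273370 in leukemic marrow, against 484290 and 373060 in mature cells, and 4 of 12 were lower. Among the controls, the 3′ to 5′ ratio of beta-actin was 3.28 and 3.09 in leukemic arrays, against 1.32 and 1.39 in mature arrays. The hybridization controls averaged 11918 and 8949.8 against 4044 and 4168. The mature arrays also differed in sex-linked genes. Xist read 7138 in mature replicate 1 and 114 in replicate 2, and the Y-linked Eif2s3y 2.90 and 4409, while both leukemic arrays had high Xist and low Eif2s3y. The part of these differences in the results below was not tested.

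The chemokines with the largest falls were Cxcl2 and Ccl6, and the receptors Cxcr2, Ccr1 and Ccr2, all of inflammatory myeloid cells, were lower in leukemic marrow as well. Ccr9, Ccl17 and Ackr1 were higher. Cxcr4, the marrow retention receptor, was bright in all 4 arrays and did not pass. Of the 31 tested members 10 were lower and 3 higher, 13 in all or 41.9%, while 43.4% of all tested genes passed, so the share of members that changed was near the background. By direction, 15.9% of all genes were lower and 27.5% higher, against 32.3% and 9.68% of the tested members. The median log2 fold change was -0.71 over tested members and 0.28 over all tested genes. It depended on the filter, at -0.32 over the 55 members and 0.15 over all genes with no filter, and at -1.67 over 15 members and 0.28 over all genes with the dimmest 60% left out. Since dim members could enter through 1 group, these shares describe the tested members and not the family.

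**Figure D1:**
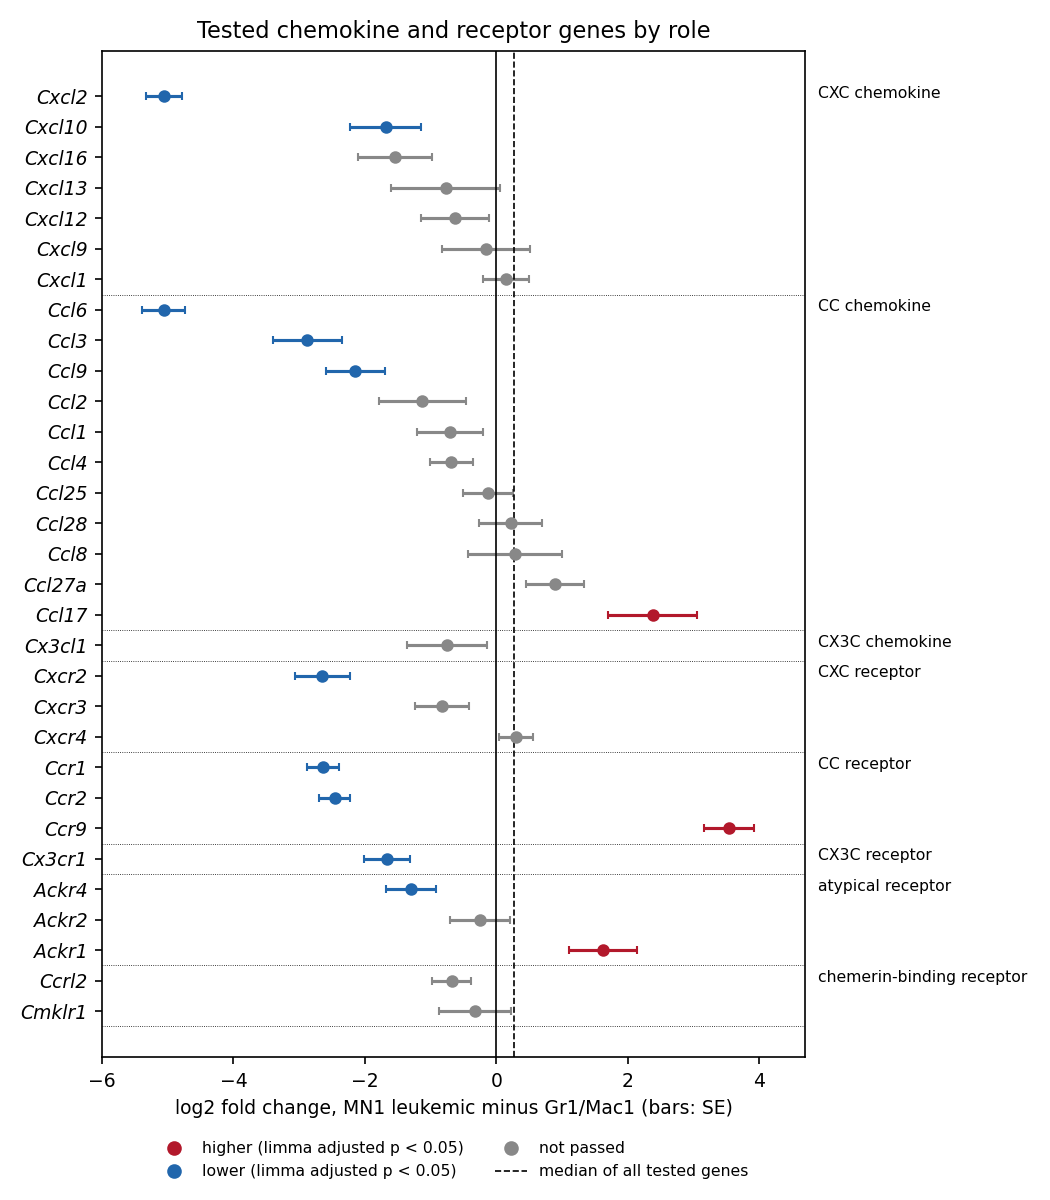
Log2 fold change, MN1 leukemic minus Gr1/Mac1, of the 31 tested members (rows, by role), with bars for the SE and the dashed line at the median of all tested genes, 0.28. Cxcl2 and Ccl6 lie near -5.05, Ccr9 lies highest at 3.54, and Cxcr4 and Cxcl1 lie near 0.

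The share of higher and lower genes depended on the scaling of the arrays. Of all changed genes, 63.3% were higher as deposited, 49.7% with every array at the same median and 15.4% with the groups scaled to the hybridization controls. The median over all genes was then -0.02 and -0.95, and that over tested members -0.98 and -1.80, over the same filtered set. Under the hybridization scaling Ccl17 (1.26, limma adjusted p = 0.15) and Ackr1 (0.50, adjusted p = 0.43) did not pass. In bulk RNA of this kind, fewer cells of a type and less RNA per cell cannot be told apart.

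Among CXC chemokines, the CXCR2 ligand Cxcl2 passed as lower while Cxcl1 did not. Cxcl2, a neutrophil attractant made by stimulated myeloid cells, read 173 and 114 in leukemic marrow, against 5356 and 4998 in mature cells. Both leukemic arrays lay far below both mature arrays, with a log2 fold change of -5.05 (SE 0.28, limma adjusted p = 0.000139). Cxcl1, its neighbour on the chromosome and another CXCR2 ligand, read 315 and 304 in leukemic marrow and 210 and 366 in mature cells. The groups overlapped, and its log2 fold change was 0.15 (SE 0.36, adjusted p = 0.77, with a 95% interval of -0.69 to 0.99). A second probe set of Cxcl1 read 40.9 and 133 in leukemic marrow and 152 and 255 in mature cells, with a log2 fold change of -1.21 (adjusted p = 0.13 in a fit over every kept probe set). Both carry a suffix for probes that can match several transcripts, and the other probe set of Cxcl1 was too dim to be tested. With the groups scaled to the hybridization controls Cxcl1 passed as lower, with -1.11. Cxcl3 and Cxcl5, also ligands of CXCR2, were too dim to be tested, at 15.4 and 23.2 in leukemic marrow against 8.96 and 41.8 in mature cells for Cxcl3, and 3.74 and 16.7 against 11.7 and 1.16 for Cxcl5.

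The sequences just before the transcription starts of Cxcl2 and Cxcl1 are shown because the brightest probe sets of these neighbours had unlike signals. Those of Ccl6 and Ccl9 are shown because these neighbours were both lower. Each run is the 250 bases before the start, 5′ to 3′ on the gene's strand, from RefSeq with build GRCm38.p6. They lie at chr5:90903649-90903898 (+) for Cxcl2, chr5:90890995-90891244 (+) for Cxcl1, chr11:83593088-83593337 (-) for Ccl6 and chr11:83578637-83578886 (-) for Ccl9. Capitals mark matches, on either strand, to any of 5 motifs. The NF-κB motif searched was GGGNN followed by TTTCC. The AP-1 motif was TGANTCA. The C/EBP motif was TTGC, then any 2 bases, then AA. The MEIS motif was TGACAG. The TATA box was TATAAA. No pair of the marked matches overlaps except a pair of TATAAA matches on opposite strands in Ccl9.
Cxcl2: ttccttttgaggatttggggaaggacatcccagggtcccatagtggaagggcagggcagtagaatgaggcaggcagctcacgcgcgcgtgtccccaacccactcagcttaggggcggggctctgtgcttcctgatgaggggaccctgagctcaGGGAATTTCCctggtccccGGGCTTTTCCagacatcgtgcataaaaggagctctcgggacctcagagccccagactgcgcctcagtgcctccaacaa
Cxcl1: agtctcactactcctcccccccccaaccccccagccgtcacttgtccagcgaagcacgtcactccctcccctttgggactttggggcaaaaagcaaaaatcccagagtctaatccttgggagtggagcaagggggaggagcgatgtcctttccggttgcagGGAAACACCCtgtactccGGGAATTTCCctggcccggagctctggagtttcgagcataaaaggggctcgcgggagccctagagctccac
Ccl6: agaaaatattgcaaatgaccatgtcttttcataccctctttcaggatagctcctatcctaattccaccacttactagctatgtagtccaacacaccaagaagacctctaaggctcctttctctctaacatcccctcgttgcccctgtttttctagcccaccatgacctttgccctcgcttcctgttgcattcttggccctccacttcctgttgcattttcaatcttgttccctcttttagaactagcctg
Ccl9: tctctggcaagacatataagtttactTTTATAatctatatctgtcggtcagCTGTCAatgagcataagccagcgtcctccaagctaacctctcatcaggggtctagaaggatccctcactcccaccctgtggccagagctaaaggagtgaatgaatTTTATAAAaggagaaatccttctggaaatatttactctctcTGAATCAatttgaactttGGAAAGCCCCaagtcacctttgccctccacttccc

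Both Cxcl2 and Cxcl1 held 2 matches to the NF-κB motif within 100 bases of the start, Ccl9 held 1, and Ccl6 held no match to any of the 5 motifs in this window. A window of 300 bases, from 250 before the start to 50 after it, was found for 42 of the 55 members. The NF-κB motif was in 6 of these 42 (14.3%), Cxcl2, Ccl9, Cxcl1, Ccl20, Cxcl3 and Ccr3, against 1.62% of 27025 gene starts, taking 1 per gene. Of these 6, Cxcl2 and Ccl9 were lower in leukemic marrow, Cxcl1 did not pass and the others were too dim to be tested. TATAAA was in 31.0% of the members' windows against 14.16% of all, TGANTCA in 16.7% against 7.93%, the C/EBP motif in 7.1% against 10.75% and TGACAG in 9.5% against 19.29%. Among the 10 lower members, TGACAG was found in Ackr4 and Ccl9, TGANTCA in Cxcl10 and Ccl9, and the C/EBP motif in 0. A match is only a match of letters.

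Cxcl10, an interferon-induced ligand of CXCR3, read 40.9 and 21.8 in leukemic marrow, against 189 and 92.6 in mature cells. The arrays did not overlap, the levels were low, and the log2 fold change of -1.69 (SE 0.55) passed narrowly (limma adjusted p = 0.043). The mean was over the filter in mature cells alone, the group where Cxcl10 was high. With a pseudocount of 1 Cxcl10 did not pass (limma adjusted p = 0.052). It did not pass without leukemic replicate 1 (adjusted p = 0.080), leukemic replicate 2 (0.20) or mature replicate 1 (0.17). Cxcl9, another such ligand, read 28.8 and 56.8 in leukemic marrow and 23.4 and 87.5 in mature cells, with overlap and no pass (-0.16, adjusted p = 0.87). Their receptor Cxcr3 read 83.5 and 136 in leukemic marrow, against 240 and 171 in mature cells, and did not pass (-0.83, adjusted p = 0.15).

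The other CXC chemokines were dim. Cxcl16, the ligand of CXCR6, read 17.5 and 54.2 in leukemic marrow and 102 and 153 in mature cells, without overlap, and missed the threshold (-1.54, SE 0.56, limma adjusted p = 0.062). It passed as lower with quantile normalization, with every array at the same median, with the hybridization scaling and without a variance trend. Cxcl13, the B cell attractant, spread widely within each group, at 69.0 and 20.0 in leukemic marrow and 28.4 and 185 in mature cells (-0.77, adjusted p = 0.49). Cxcl12, the stromal ligand of CXCR4, read 49.7 and 29.4 in leukemic marrow and 65.6 and 70.9 in mature cells (-0.62, adjusted p = 0.37). Its other probe sets were dimmer. Stromal and endothelial markers summed to 881 and 696 in leukemic marrow and 182 and 618 in mature cells. Of 5 tested, 1 was higher in leukemic marrow, Pdgfrb (2.69, SE 0.53, limma adjusted p = 0.0066), and 0 lower. Col1a1, Pdgfra, Cdh5, Pecam1 and Tek were below the filter.

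Among CC chemokines Ccl6, Ccl9 and Ccl3, ligands of CCR1, passed as lower, while the CCR1 ligands Ccl5 and Ccl7 were too dim to be tested. Ccl6, a chemokine that rodents have and myeloid cells make, read 621 and 339 in leukemic marrow, against 17988 and 13919 in mature cells. No array of one group came near the other, and the log2 fold change was -5.06 (SE 0.33, limma adjusted p = 0.000192). This probe set carries a suffix for probes that can match several transcripts. The other probe set of Ccl6, without that suffix, read 1540 and 543 in leukemic marrow, against 14884 and 12335 in mature cells. Its difference was smaller, at -3.86 (SE 0.46). Ccl9, another rodent ligand of CCR1, read 1757 and 1183 in leukemic marrow, against 10257 and 4029 in mature cells. Mature replicate 1 was well above replicate 2, both lay above the leukemic arrays, and the log2 fold change was -2.15 (SE 0.45, adjusted p = 0.0084). The call was lost without leukemic replicate 2 (-1.86, adjusted p = 0.051), and the dimmer probe set of Ccl9 was not past the threshold in a fit over every kept probe set (-1.60, adjusted p = 0.058).

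Ccl3, an inflammatory chemokine that also restrains stem cell division, read 75.9 and 87.5 in leukemic marrow, against 1229 and 397 in mature cells. The leukemic arrays were alike and low, the mature arrays differed from each other, and the log2 fold change was -2.88 (SE 0.53, limma adjusted p = 0.0051). Ccl4, which lies beside Ccl3 and attracts an overlapping range of cells, read 189 and 175 in leukemic marrow, against 255 and 355 in mature cells. Its arrays did not overlap either, but the difference of -0.68 (SE 0.33) did not pass (adjusted p = 0.14). It passed as lower with quantile normalization or with the hybridization scaling.

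Ccl17, a ligand of CCR4 best known from dendritic cells, was the only CC chemokine that passed as higher. It read 579 and 143 in leukemic marrow, against 60.7 and 29.7 in mature cells. The leukemic arrays differed widely from each other yet both lay above the mature arrays, and the log2 fold change was 2.38 (SE 0.67, limma adjusted p = 0.026). Without leukemic replicate 1 it was 1.42 (adjusted p = 0.19), and it did not pass without mature replicate 1 (2.75, adjusted p = 0.052) or mature replicate 2 (adjusted p = 0.11). Ccl22, its neighbour and the other CCR4 ligand, was untested at 18.6 and 39.1 in leukemic marrow, against 4.91 and 8.04 in mature cells. Of the dendritic cell markers, Siglech was too dim to be tested, at 70.3 and 65.2 in leukemic marrow and 5.72 and 21.8 in mature cells. Over the 7 listed, 2 were higher and 3 lower of 6 tested, with summed signals of 3861 and 4239 in leukemic marrow and 1251 and 1223 in mature cells. Flt3, which is also a progenitor marker, carried that sum, and without it the list summed to 822 and 770.2 in leukemic marrow against 1149 and 1160 in mature cells. Itgax, Cd209a and Batf3 were the lower ones, and Zbtb46 was higher beside Flt3. Their part in the Ccl17 result was not tested.

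The remaining tested CC chemokines did not pass. Ccl2, the monocyte attractant that binds CCR2, read 66.1 and 16.6 in leukemic marrow and 149 and 61.2 in mature cells, with overlap (-1.12, limma adjusted p = 0.22). Ccl27a, a skin chemokine, had the largest positive log2 fold change among members not past the threshold, at 114 and 201 in leukemic marrow and 75.1 and 73.3 in mature cells (0.90, adjusted p = 0.15). The log2 fold changes of Ccl1, Ccl8, Ccl25 and Ccl28 lay between -0.71 (Ccl1) and 0.28 (Ccl8), with adjusted p from 0.30 (Ccl1) to 0.81 (Ccl25). That of Ccl28 was 0.22 (adjusted p = 0.75). Cx3cl1, the membrane-bound ligand of CX3CR1, overlapped between groups, at 53.2 and 23.7 in leukemic marrow and 46.1 and 108 in mature cells (-0.75, adjusted p = 0.36).

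**Figure D2:**
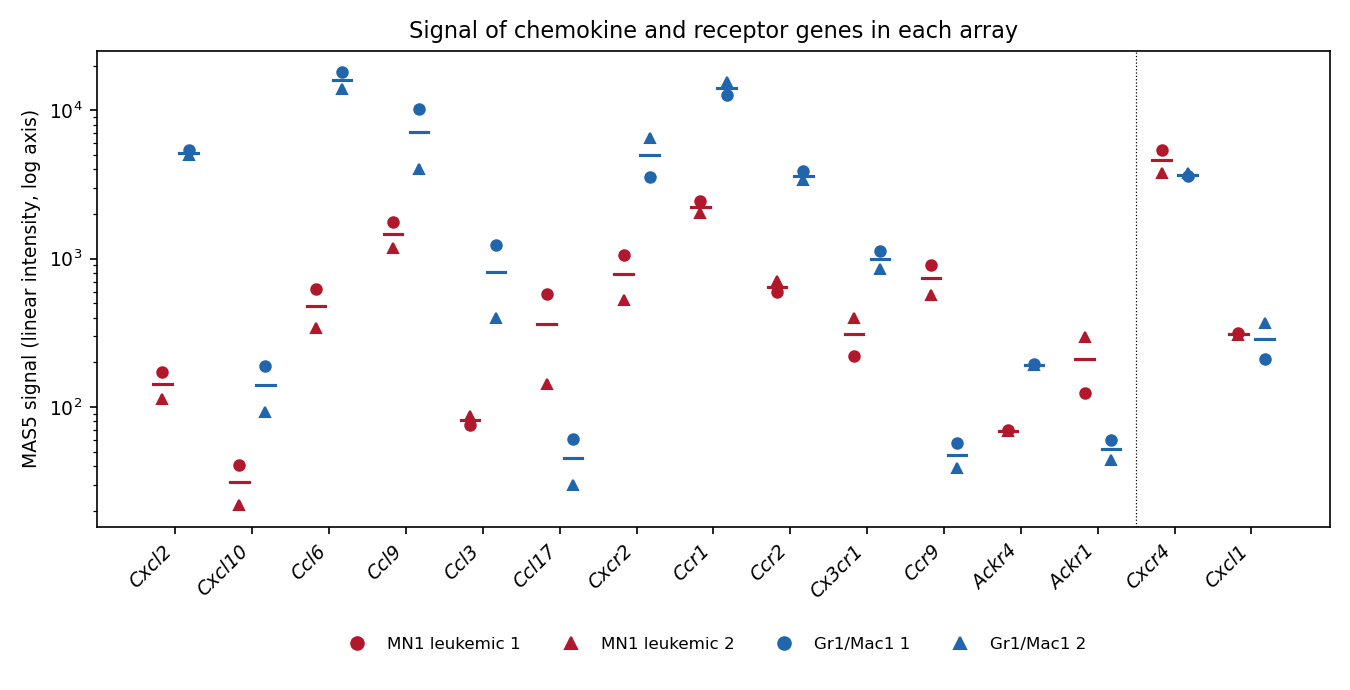
MAS5 signal (log axis) of the 13 members that passed and, right of the dotted line, of Cxcr4 and Cxcl1, in each array; circles are replicate 1, triangles replicate 2 and lines the group mean. The leukemic arrays (red) of Cxcl2 sit at 173 and 114, far below the mature arrays (blue) at 5356 and 4998, while those of Ccr9 sit at 903 and 570, above 56.9 and 38.6.

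The receptors Cxcr2, Ccr1, Ccr2 and Cx3cr1 were lower in leukemic marrow. Cxcr2, the neutrophil receptor of CXCL1 and CXCL2, read 1059 and 528 in leukemic marrow, against 3528 and 6464 in mature cells. The groups did not overlap, and the log2 fold change was -2.65 (SE 0.41, limma adjusted p = 0.0029). Ccr1, the receptor of CCL3, CCL6 and CCL9, read 2462 and 2018 in leukemic marrow, against 12618 and 15481 in mature cells. Replicates were close and the log2 fold change was -2.64 (SE 0.24, adjusted p = 0.000564). The signal of its second probe set was lower too, with a difference of -3.53 (SE 0.39).

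Ccr2, which lets monocytes leave the marrow, read 594 and 701 in leukemic marrow, against 3881 and 3370 in mature cells. Its log2 fold change was -2.46 (SE 0.24, limma adjusted p = 0.000634), and all 4 of its probe sets passed as lower in the fit over every kept probe set, from -3.08 to -1.26. Cx3cr1, a receptor of monocytes that patrol vessels, read 221 and 400 in leukemic marrow, against 1126 and 853 in mature cells. The groups did not overlap, with -1.67 (SE 0.35, adjusted p = 0.0088), and the call was lost without leukemic replicate 1 (-1.26, adjusted p = 0.067). Monocyte and macrophage markers moved beside these receptors. Of 13 tested, 9 were lower and 2 higher, and their summed signal was 11459 and 7564 in leukemic marrow against 55059 and 33741 in mature cells. How far the number of monocytes bears on Ccr2, Cx3cr1 and Ccr1 was not tested.

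Cxcr4 read 5383 and 3793 in leukemic marrow, against 3580 and 3762 in mature cells. The leukemic arrays lay above the mature ones, leukemic replicate 2 only just, and the difference of 0.30 (SE 0.25) did not pass (limma adjusted p = 0.38), with a 95% interval of -0.30 to 0.90. With the groups scaled to the hybridization controls it passed as lower (-1.03, adjusted p = 0.013), so its direction depends on the scaling. Cxcr4 and Cxcr2, which hold and release marrow neutrophils, differed in their log2 fold change by more than either SE, and this difference was not itself tested.

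Ccr9, the receptor of CCL25 that guides lymphocytes to the gut and progenitors to the thymus, had the largest rise of the tested members. It read 903 and 570 in leukemic marrow, against 56.9 and 38.6 in mature cells. The arrays lay well apart, with a log2 fold change of 3.54 (SE 0.38, limma adjusted p = 0.000904). A second probe set read 213 and 142 in leukemic marrow, against 3.70 and 2.74 in mature cells. It passed as well in the fit over every kept probe set (3.31, SE 0.52, adjusted p = 0.0039). Its mean was over the filter in leukemic marrow alone, so it entered that fit through the group where it was high. The other 3 probe sets of Ccr9 were too dim to be tested, and both bright ones carry a suffix for probes that can match several transcripts. Its ligand Ccl25 read 112 and 132 in leukemic marrow and 136 and 132 in mature cells, and did not pass (-0.13, adjusted p = 0.81). Of the T cell markers Cd3e, Cd3g, Cd4 and Cd8b1 were too dim to be tested, Cd3d was lower, and Lat and Bcl11b were higher. The summed T cell signal was 1219 and 1570 in leukemic marrow against 613 and 541 in mature cells. Without Lat it was 460.2 and 621 in leukemic marrow against 572 and 533 in mature cells, which overlapped. Cd3d, at 42.6 and 6.30 in leukemic marrow against 373 and 384 in mature cells, made up most of that mature sum. Bcl11b went the other way, at 145 and 363 in leukemic marrow against 14.9 and 13.7 in mature cells. The overlap therefore depends on which genes are kept. The part of T cells in the Ccr9 result was not tested.

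The atypical receptors went different ways. Ackr4, which removes CCL19, CCL21 and CCL25, read 69.5 and 68.6 in leukemic marrow, against 194 and 191 in mature cells. Replicates were nearly equal, and the log2 fold change was -1.29 (SE 0.38, limma adjusted p = 0.031). A second probe set read 70.3 and 84.4 in leukemic marrow and 160.5 and 141 in mature cells and did not pass (-0.84, adjusted p = 0.14), and the other was too dim to be tested. Ackr1, the Duffy antigen of red cells and vessels, read 123 and 297 in leukemic marrow, against 59.9 and 44.3 in mature cells. Its log2 fold change was 1.63 (SE 0.52, adjusted p = 0.040), and its only probe set carries a suffix for probes that can match several transcripts. Neither call was firm. Ackr4 did not pass when any of the 4 arrays was left out (-1.31 to -1.28, adjusted p = 0.058 to 0.16). Ackr1 did not pass without leukemic replicate 2 (1.04, adjusted p = 0.32), mature replicate 1 (1.79, 0.067) or mature replicate 2 (1.46, 0.11). Erythroid markers, 4 higher of 5 tested, summed to 20411 and 34622 in leukemic marrow and 7575 and 3179 in mature cells, and their part in the Ackr1 result was not tested.

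Ackr2, which removes inflammatory CC chemokines, overlapped between groups, at 89.4 and 58.0 in leukemic marrow and 86.8 and 90.9 in mature cells (-0.25, limma adjusted p = 0.70). Ccrl2, which binds the attractant chemerin without signalling, read 242 and 237 in leukemic marrow, against 435 and 357 in mature cells. It missed the threshold (-0.68, SE 0.30, adjusted p = 0.11), but passed as lower with quantile normalization or with the hybridization scaling. Cmklr1, the signalling receptor of chemerin, was dim and overlapped (-0.32, adjusted p = 0.68).

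The 24 untested members had mean signals from 5.23 to 44.0, and their highest single reading was 85.9, of Cxcl17 in leukemic replicate 1. The brightest of them were Ccr10, Ccr6, Ccr3, Ccl5 and Cxcl17. Ccr3, the eosinophil receptor of eotaxins, read 3.61 and 15.7 in leukemic marrow, against 84.5 and 66.9 in mature cells, and was the sole member gained as lower when no filter was applied. Ccr10, a receptor of skin-homing and plasma cells, read 15.9 and 24.1 in leukemic marrow, against 82.5 and 53.4 in mature cells. Ccr6, the receptor of CCL20, read 3.53 and 47.2 in leukemic marrow, against 71.0 and 51.6 in mature cells. Ccl5, an attractant of T cells, read 11.2 and 52.7 in leukemic marrow and 64.1 and 34.9 in mature cells, with overlap. Cxcl17 read 85.9 and 32.9 in leukemic marrow and 14.7 and 25.4 in mature cells. The others were Ccl7, Ccl11, Ccl12, Ccl20, Ccl22, Ccl24, Cxcl3, Cxcl5, Cxcl11, Cxcl14, Cxcl15, Ccr4, Ccr7, Ccr8, Ccr1l1, Cxcr5, Cxcr6, Xcr1 and Ackr3, with means under 40.

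Many members lie side by side in the genome. In the RefSeq gene order of GRCm38.p6, 31 members fell into 7 runs in which each gene began within 1 Mb of the next. In the run Ccl5, Ccl9, Ccl6, Ccl3 and Ccl4, 3 of 4 tested genes were lower, the middle ones. In the other CC run of Ccl2, Ccl7, Ccl11, Ccl12, Ccl8 and Ccl1, the ligands of CCR2, CCR3 and CCR8, 0 of 3 tested genes passed. In the run Cxcl5, Cxcl3, Cxcl15, Cxcl1 and Cxcl2 Cxcl2 alone passed, and in that of Cxcl9, Cxcl10 and Cxcl11 Cxcl10 alone. The receptor run held both directions, with Ccr9 higher at its first place and Ccr1 and Ccr2 lower further along. No test of position was made.

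**Figure D3:**
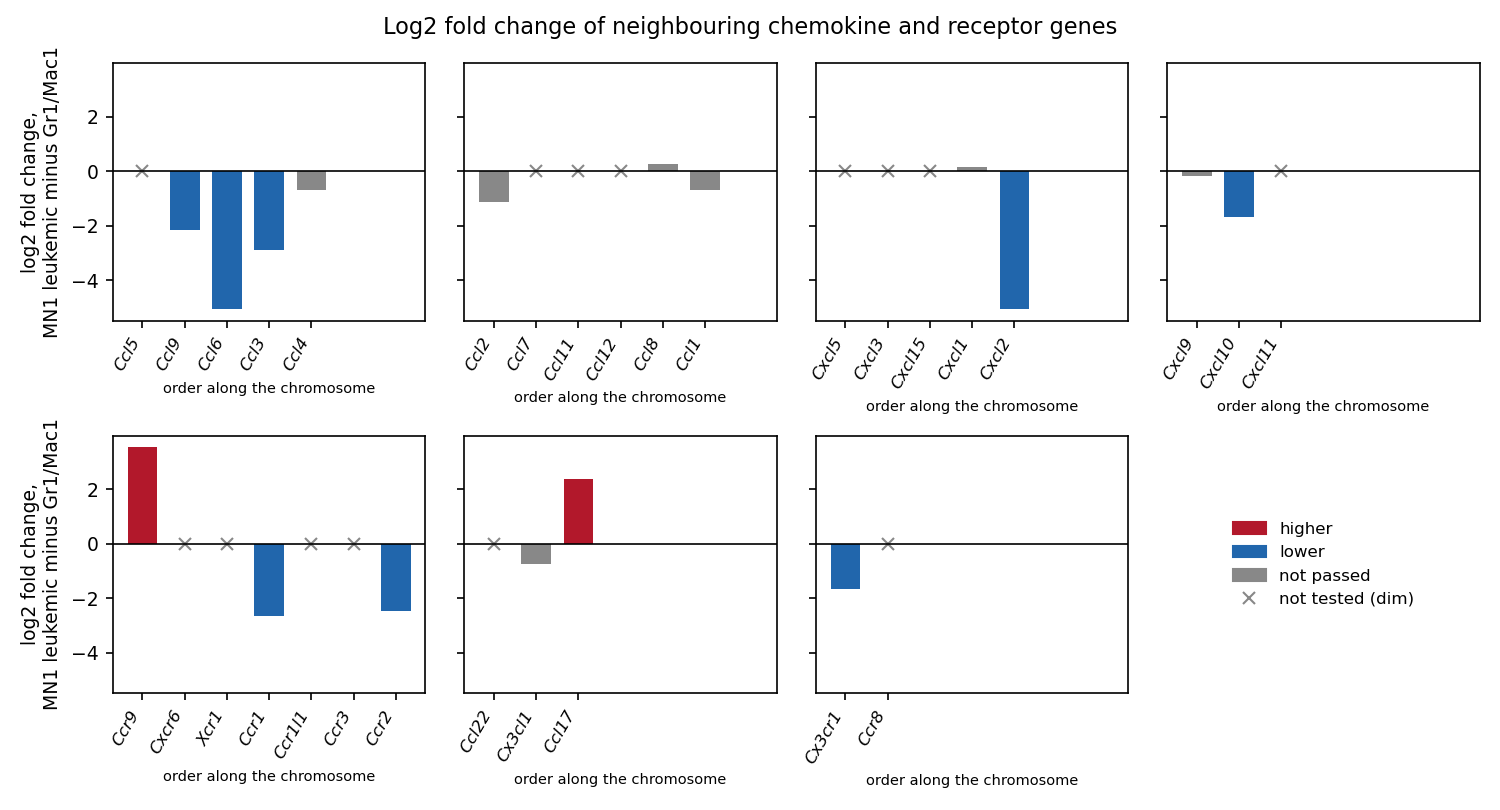
Log2 fold change, MN1 leukemic minus Gr1/Mac1 (bars), of members in the 7 runs of neighbouring genes, in their order along the chromosome without scale; crosses mark genes too dim to be tested. Ccl9, Ccl6 and Ccl3 are lower beside each other, Cxcl2 is lower beside Cxcl1 near 0, and Ccr9 is higher in the run that holds the lower Ccr1 and Ccr2.

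Genes of chemokine signalling, of cell movement and adhesion and of chemokine processing and induction were mostly lower in leukemic marrow. Over 8 lists 119 were tested once each, and 72 (60.5%) were lower and 9 (7.56%) higher, against 15.9% and 27.5% of all tested genes, with a median log2 fold change of -1.22 against 0.28 over all tested genes. With the groups scaled to the hybridization controls 95 were lower and 3 higher, where 48.0% of all tested genes were lower and 8.75% higher. Genes of mature granulocytes and monocytes, which the gate favours, are among those listed, and their part in these counts was not tested. Among other chemoattractants and their receptors 6 of 11 were lower and 1 higher. The leukotriene B4 receptor gene Ltb4r1 read 3995 and 1929 in leukemic marrow, against 11027 and 9274 in mature cells (-1.86, SE 0.36, limma adjusted p = 0.0063). The complement receptor gene C5ar1 read 468 and 71.2 in leukemic marrow, against 1002 and 2628 in mature cells, and was lower too (adjusted p = 0.022), as was Gpr35 (-2.97). Mif, a cytokine that binds CXCR2 and CXCR4, was higher, at 6862 and 5449 in leukemic marrow against 1155 and 569 in mature cells (2.89, SE 0.36, adjusted p = 0.0014). Pf4 and Ppbp, platelet CXC chemokines that the naming rule does not reach, did not pass (0.81, adjusted p = 0.093, and -0.90, adjusted p = 0.24).

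Of 20 tested G protein and RGS genes, 9 were lower and 3 higher, with a median of -0.53. Gnai2, the main inhibitory G protein α chain of leukocytes, read 13937 and 11005 in leukemic marrow, against 25730 and 25843 in mature cells (-1.06, SE 0.26, limma adjusted p = 0.015). The β chain gene Gnb4 was higher, at 2950 and 4375 in leukemic marrow against 93.2 and 102 in mature cells (4.99, SE 0.29, adjusted p = 0.000149), and the γ chain gene Gng2 was lower (-3.40, SE 0.51). RGS proteins switch G proteins off. Rgs13 (2.65) and Rgs10 (2.38) were higher (Rgs10 not past the threshold under the hybridization scaling), while Rgs2 (-3.35) and Rgs3 (-2.51) were lower. Rgs13 read 135 and 71.0 in leukemic marrow, against 4.02 and 0.752 in mature cells. Its mean was over the filter in leukemic marrow alone, so it entered the test through the group where it was high. Among receptor kinases and arrestins, which end the signal, 3 of 5 were lower and 0 higher, namely Arrb2 (-2.50), Grk6 (-1.22) and Grk5 (-1.01).

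Among signalling effectors 13 of 21 tested genes were lower and 0 higher, with a median of -1.30. Both regulatory subunit genes of the kinase PI3Kγ passed. Pik3r6 read 807 and 544 in leukemic marrow, against 9619 and 6796 in mature cells (-3.58, SE 0.29, limma adjusted p = 0.000402), and Pik3r5 had -3.01. The Src family kinase gene Fgr was lower by a similar amount (-3.53). In the migration machinery, 20 of 24 were lower and 0 higher, with a median of -1.30. They included the Rac exchange factor gene Prex1 (-2.47), Tiam2 (-1.90) and Vav3 (-1.84). Cfl1, Ezr, Fermt3 and Cdc42 did not pass.

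Adhesion genes split by integrin, though the higher ones depended on the scaling. Itga4 and Itgb1, whose products form VLA-4 that binds marrow stroma, were higher, with log2 fold changes of 1.02 (limma adjusted p = 0.028) and 0.90 (0.025), and so was Itga5 (1.76, 0.043). Itga4 read 4859 and 6356 in leukemic marrow, against 3409 and 2177 in mature cells. Itga5 read 95.7 and 192 in leukemic marrow, against 17.3 and 44.5 in mature cells. Its mean was over the filter in leukemic marrow alone. With the groups scaled to the hybridization controls Itga4 and Itgb1 turned to -0.30 and -0.40 and Itga5 fell to 0.74, none past the threshold. With every array at the same median none of the 3 passed (Itga4 0.70, Itgb1 0.59, Itga5 1.54). With quantile normalization Itga4 passed, while Itgb1 (0.66, limma adjusted p = 0.073) and Itga5 (1.52, 0.064) did not. Itgal (-2.20) and Itgb2 (-1.88), which form LFA-1, and Cd9 (-3.27) were lower. Of 12 tested genes of chemokine processing 5 were lower, led by the protease genes Ctss (-2.93), Mmp9 (-2.52) and Mmp8 (-1.56). The 2 higher ones were Mmp14 (2.58) and the sulfotransferase gene Tpst1 (1.37), both of them not past the threshold under the hybridization scaling. Tpst1, at 0.10 there, also did not pass with quantile normalization (limma adjusted p = 0.062) or with every array at the same median (0.078). Dpp4, which clips CXCL12, spread widely, at 165 and 483 in leukemic marrow and 388 and 62.7 in mature cells, and did not pass.

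The list of NF-κB genes, their inhibitors, upstream signalling genes and inducing cytokines had a median of -1.85. Of its 16 tested genes 11 were lower and 0 higher, where 15.9% of all tested genes were lower and 27.5% higher. The lower ones include the inhibitor genes Nfkbia (-1.935) and Nfkbie (-1.82). The interleukin gene Il1b read 416 and 450 in leukemic marrow, against 5624 and 12976 in mature cells (-4.25, SE 0.39, limma adjusted p = 0.000564). Nfkbiz, an NF-κB cofactor, had -3.97 (SE 0.26), and Irak3, a brake on Toll-like receptor signalling, -2.79 (SE 0.25). Tnfaip3 and Traf6 did not pass.

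**Figure D4:**
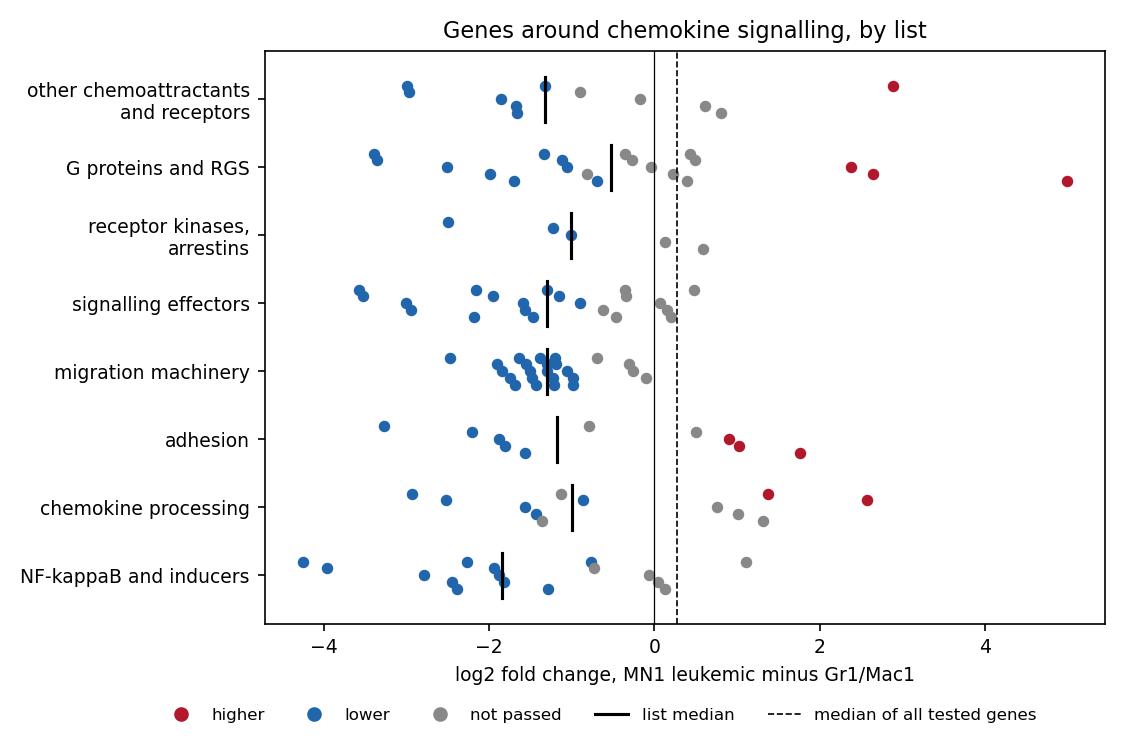
Log2 fold change, MN1 leukemic minus Gr1/Mac1, of each tested gene (points) in 8 lists around chemokine signalling, with the list's median (bar) and that of all tested genes (dashed line, 0.28). Most points lie left of 0, with medians from -1.85 for NF-κB and inducers to -0.53 for G proteins and RGS, and Gnb4 lies far right at 4.99.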

How the data were processed

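The authors computed the deposited MAS5 intensities, on a linear scale, in GCOS 1.3.0 according to the submitters' processing notes. Neither its settings nor detection calls were used here. The 2% trimmed mean was 500.003 or 500.004 in each of the 4 arrays, so arrays had been scaled linearly before deposit, and the composition of the RNA can shift all signals. No further scaling was applied. Of 45101 probe sets, 64 controls were left out. Symbols came from the platform annotation. The dimmest 40% of probe sets by mean were dropped, 1 probe set per gene was kept, and log2(signal + 16) was fitted with limma 3.58.1 in R 4.3.3 (lmFit, eBayes with a variance trend, two-sided, Benjamini-Hochberg adjustment, threshold 0.05), with 6.90 degrees of freedom after moderation. The fit was tested on simulated data. The number of arrays, 2 a group, limits all precision.

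The members, gene lists and tests were chosen with earlier results of these data known. Values are given for every tested member and the 5 brightest untested ones, for up to 3 called genes in each direction of a list, and for some further genes chosen after their values were seen. Promoter sequences came from RefSeq (GRCm38.p6). The 15 alternatives changed the pseudocount (1, 64), the filter, the scaling, the probe sets, the variance model, the replicate block and the arrays. Plots used matplotlib 3.10.9 (Python 3.11.15).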

Additional observations from a re-analysis of the deposited data

How the results depend on the processing

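Of the 13 members that passed, 6 did so under all 15 alternatives (Cxcl2, Ccl6, Ccl3, Cxcr2, Ccr1 and Ccr2), and Ccr9 in the 14 that tested it. Every one of the 13 kept its direction wherever it was tested. The 3 higher members became 1 with quantile normalization, with the hybridization control scaling, and without probe sets that can match several transcripts. In this last setting Ccr9 and Ackr1 were no longer tested. The hybridization scaling gave 22 lower members in place of 10, while 48.0% of all tested genes were lower in place of 15.9%, and it turned Cxcl1 (-1.11) and Cxcr4 (-1.03) to lower calls. Leaving out an array in turn gave 1 to 2 higher and 7 to 9 lower members, and 2575 to 5441 changed genes against 5375 with all arrays. The count was 3429 without leukemic replicate 1 and 2575 without leukemic replicate 2. The lone array of a group was then assumed to vary like the other group. Both groups use replicate numbers 1 and 2, but nothing says that a number pairs arrays, and the replicate differences correlated at -0.03 over genes. A fit with a replicate block gave 5562 changed genes and the same 13 members. Without a filter Cxcl10, Ackr1 and Ackr4 did not pass (adjusted p = 0.071, 0.077 and 0.074), and Ccl17 did not with quantile normalization (0.055). The scalings of the pathway lists and the marker sums without Flt3 or Lat were added after seeing the data. The causes were not tested. With 2 arrays a group an exact permutation test can give no p below 0.33.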
